A study of Mus musculus with 48 samples.

Results

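The 10 genes described here, whose products move ions and water across the intestinal lining or regulate that movement, were followed through the first 4 weeks of mouse life: the peptide genes Guca2a and Guca2b, their receptor gene Gucy2c, the chloride channel gene Cftr, the sodium-potassium-chloride cotransporter gene Slc12a2, the sodium/hydrogen exchanger genes Slc9a3 and Slc9a2, the anion exchanger genes Slc26a3 and Slc26a6, and the sodium bicarbonate cotransporter gene Slc4a4. They were chosen by symbol, and each of the 10 symbols matched 1 of the 54532 gene identifiers in the deposited count table. All 10 passed the filter on low counts, as did 21986 genes in all. Total RNA came from 2 cm of small intestine, cut either just beyond the stomach (duodenum) or just before the caecum (ileum), at days 0, 2, 4, 6 and 8 and weeks 2, 3 and 4. All mice were untreated C57Bl/6J animals of either sex, and the labels name no engineered allele. Pups were weaned from the dam to chow at day 21, so the week 3 samples stand at that change. The labels call the housing germ-free in a wording that does not settle whether the mice carried microbes. The design has 16 groups of 3 samples, and sample 3 of day 6 was left out in both regions, which left 46 samples. For Guca2a both went against their region labels, at 212 CPM in the library labelled duodenum and 15.8 CPM in that labelled ileum. Each was nearer to the other region's remaining day 6 samples (260.4 and 349 CPM in ileum, 21.4 and 28.8 CPM in duodenum, on a scale set over all 48 samples). Guca2a is among the genes studied, so these values are no independent check of the labels, and the day 6 differences depend on this omission. The labels do not say whether samples of a group came from separate animals, or whether both regions of 1 animal were used, so p-values measure the spread between these samples.

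Guanylin (Guca2a) and uroguanylin (Guca2b) are small peptides released by intestinal epithelial cells. They bind guanylate cyclase C (Gucy2c) on the brush border, which makes cyclic GMP, and this in turn opens the chloride channel Cftr and inhibits the sodium/hydrogen exchanger Slc9a3. In secreting crypt cells, chloride enters from the blood side through Slc12a2 and leaves into the lumen through Cftr, with sodium and water following. On villi, sodium chloride is absorbed by sodium/hydrogen exchange coupled to the anion exchangers Slc26a3 and Slc26a6, while Slc4a4 carries sodium and bicarbonate across the opposite, basolateral membrane.

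Summed estimated counts ranged from 23173093 to 65042327 per duodenal sample and from 16824021 to 42029626 per ileal sample. Levels are given as CPM, the counts per gene relative to a library's scaled total. Markers of the labelled segment separated the regions: Pdx1, Gata4 and Onecut2 summed to 250.1 to 508 CPM in duodenum and 25.8 to 165 CPM in ileum, and Fabp6, Slc10a2 and Fgf15 to 0.493 to 32.0 and 68.7 to 2303 CPM. Sample 1 of ileum week 4 stood apart, with an ileal sum of 109.7 CPM against 2000 and 2303 CPM in the other two, and a duodenal sum of 104 CPM against 25.8 and 38.5 CPM. All 6 smooth muscle markers were found, but they summed to only 4.68 to 44.5 CPM in duodenum and 12.9 to 194 CPM in ileum, low for tissue labelled as full thickness. Sample 2 of ileum day 0 also stood apart, with a duodenal sum of 165 CPM against 35.0 and 81.3 CPM in its group and 17.7 CPM of the Brunner gland marker Tff2 against 0.259 and 0.119 CPM. It was the highest of its group for Slc9a3, Cftr and Slc12a2. Without it, 3 uncalled ileal changes from day 0 to week 4 were called: Slc9a3 (log2 1.11, adjusted p = 0.0123), Slc26a3 (log2 0.55, adjusted p = 0.00752) and Guca2a (log2 -0.89, adjusted p = 0.0179). Sample 3 of duodenum day 4 had a smooth muscle sum of 41.6 CPM against 5.53 and 5.44 CPM in the others of its group.

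All 10 genes varied with age in duodenum and all 10 in ileum, where 67.4% and 58.7% of all genes tested were called at an adjusted p below 0.05 (edgeR quasi-likelihood test over the 8 ages, Benjamini-Hochberg adjustment). Adjusted p ran from 2.4e-23 for Slc9a2 to 0.000892 for Cftr in duodenum, and from 4.44e-23 for Slc9a2 to 0.0124 for Guca2a in ileum. Every one of these 20 calls was kept when any single library was left out. With the 2 omitted day 6 libraries put back under their labels, Cftr lost its call in both regions (adjusted p = 0.133 in duodenum, adjusted p = 0.14 in ileum) and Guca2a in ileum (adjusted p = 0.583). Differences below are log2 values with their standard error (SE) and the adjusted p of this test. Averaged over ages, 5 of the 10 differed between regions against a background of 62.1%: Guca2a and Slc26a6 were higher in ileum (31.9% of all genes were), and Cftr, Slc12a2 and Slc9a3 were lower (30.2% of all genes were). In bulk RNA, fewer cells of a type and less RNA per cell cannot be told apart, here or in any result that follows.

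**Figure D1:**
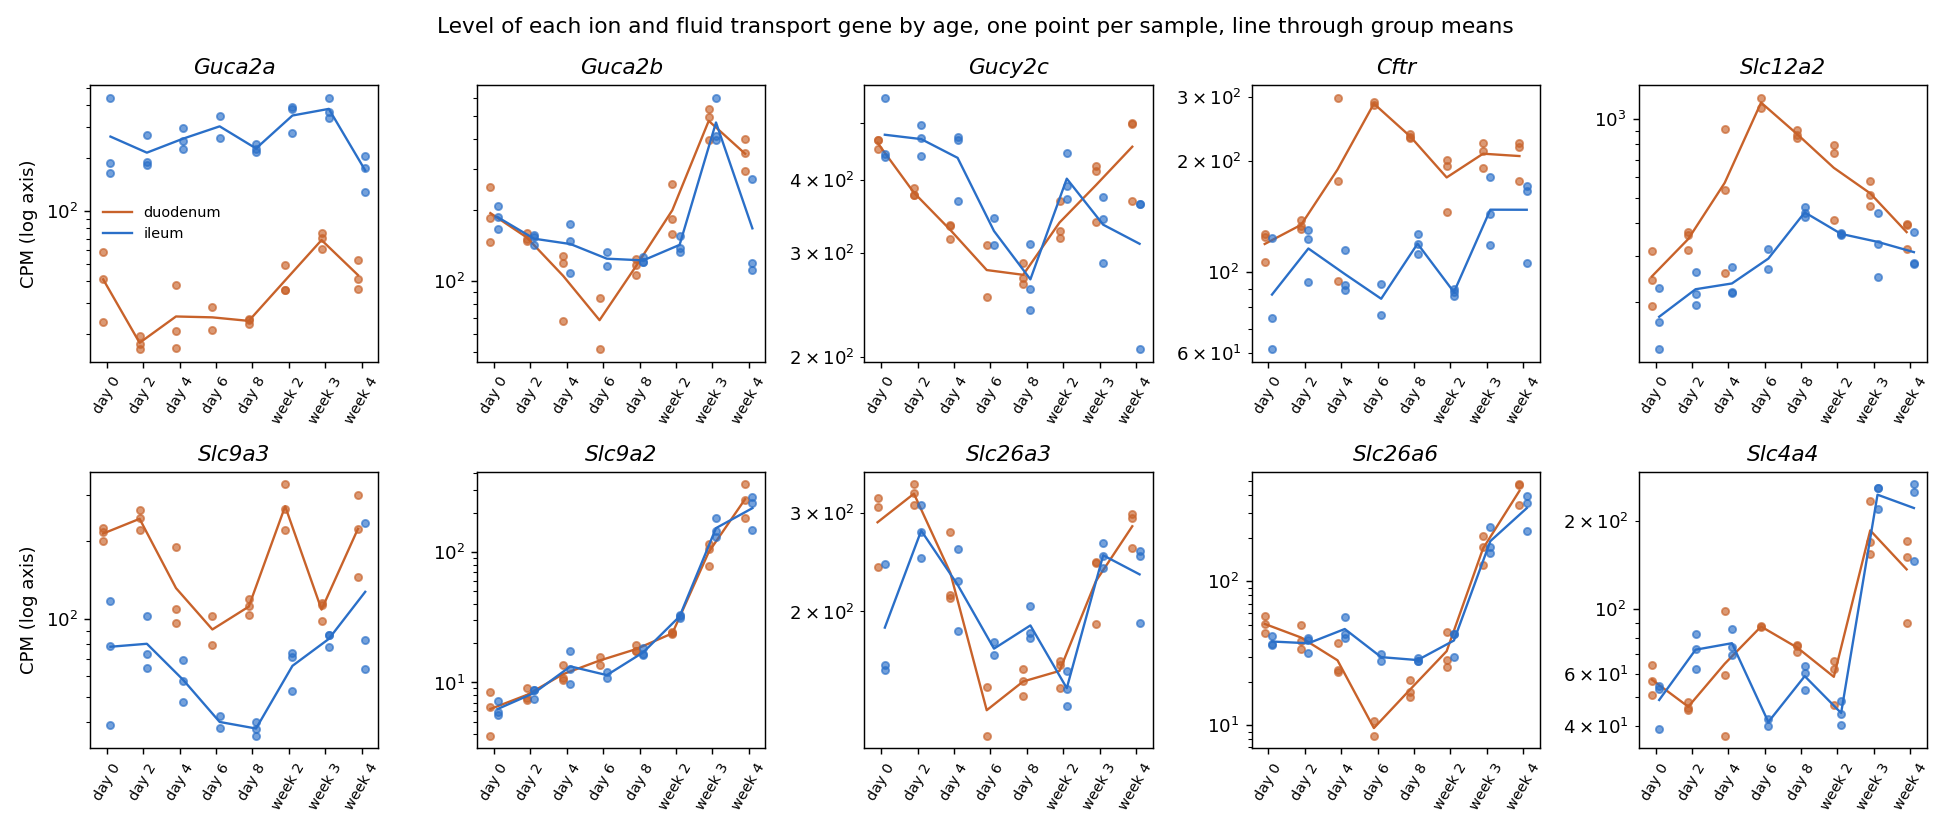
CPM on a log axis (1 panel per gene, each with its own range) against age, with 1 point per sample and a line through group means, duodenum in orange and ileum in blue. Slc9a2 and Slc26a6 climb from week 2 to week 4 in both regions, Guca2a runs apart in the 2 regions at all 8 ages, and the duodenal means of Cftr and Slc12a2 peak at day 6.

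The widest regional gap belonged to the guanylin gene. Guca2a read 58.4, 41.1 and 23.7 CPM in the 3 duodenal samples at day 0 and 443, 166 and 189 CPM in the ileal ones. Over days 2 to 8 the duodenal samples spanned 16.5 to 38.4 CPM and the ileal samples 183 to 349 CPM. At week 2 the values were 35.9, 49.7 and 36 CPM against 279, 390.3 and 382 CPM. Every ileal sample lay above every duodenal sample of its age, from birth to week 4. The difference, ileum minus duodenum, averaged over ages was log2 3.01 ± 0.11 SE, adjusted p = 2.05e-21. The gap was called at all 8 ages, the widest at day 6 (log2 3.60 ± 0.39 SE, adjusted p = 3.49e-08) and the narrowest at week 4 (log2 1.97 ± 0.30 SE, adjusted p = 9.22e-06). No single library ended any of these calls, though the day 6 call was lost when the omitted pair of libraries was put back under its labels.

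Within duodenum Guca2a was lowest by its mean at day 2, at 17.5, 19.7 and 16.5 CPM, and highest at week 3. The samples there read 75.2, 60.8 and 70.2 CPM at week 3, and by week 4 41.1, 53 and 36.4 CPM. In ileum the same weeks gave 366, 439.7 and 340.4 CPM and then 129, 177 and 206 CPM, so the groups of these weeks overlapped in neither region. The ileal change from week 3 to week 4 was log2 -1.16 ± 0.29 SE, adjusted p = 0.00374. The duodenal change had the same sign and missed the threshold (log2 -0.66 ± 0.29 SE, adjusted p = 0.128). The duodenal change from day 0 to day 8 (log2 -0.78 ± 0.29 SE, adjusted p = 0.0285) rested on 1 sample at 58.4 CPM: without it the change was log2 -0.43, adjusted p = 0.288.

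Uroguanylin behaved differently along the gut. Guca2b gave 252, 185 and 147 CPM in duodenum at day 0 and 208, 166 and 187 CPM in ileum, overlapping ranges, and its mean difference between regions was log2 -0.03 ± 0.09 SE, adjusted p = 0.816. Duodenal samples declined to 51.6 and 85.2 CPM at day 6, and stood at 258, 159 and 183 CPM at week 2. At week 3 they reached 498, 539.7 and 399 CPM, all above every earlier duodenal sample. Ileal Guca2b went from 139, 133 and 156 CPM at week 2 to 398, 602 and 415 CPM at week 3, again without overlap. The rise from week 2 to week 3 was log2 1.26 ± 0.26 SE, adjusted p = 0.000287 in duodenum and log2 1.72 ± 0.26 SE, adjusted p = 1.64e-06 in ileum, and both calls were kept whichever library was left out.

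By week 4 the 2 regions had parted for Guca2b. Duodenum still held 293, 349 and 400.1 CPM, a change from week 3 that missed the threshold (log2 -0.46 ± 0.25 SE, adjusted p = 0.236). Ileum read 271, 112 and 119.9 CPM, a change of log2 -1.49 ± 0.26 SE, adjusted p = 4.25e-05. The high ileal value is that of sample 1, the one with little Fabp6, Slc10a2 and Fgf15. Against day 0, ileal week 4 gave log2 -0.16 ± 0.25 SE, adjusted p = 0.646, and without that sample log2 -0.74, adjusted p = 0.0145. Duodenal Guca2b was above its day 0 level at week 4 (log2 0.84 ± 0.25 SE, adjusted p = 0.00761). Ileum was below duodenum at week 4 (log2 -1.05 ± 0.26 SE, adjusted p = 0.00274), and at day 6 the direction was opposite (log2 0.87 ± 0.31 SE, adjusted p = 0.0277, with 2 samples a group), a call lost without duodenum sample 1 (log2 0.55, adjusted p = 0.309).

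Both peptide genes lie on chromosome 4 of GRCm38 with 17135 bases and no complete annotated gene between them. Guca2a (ENSMUSG00000023247) occupies chr4:119637704-119639471 on the plus strand and Guca2b (ENSMUSG00000032978) chr4:119656607-119658954 on the minus strand. The sequence just upstream of each is shown because these neighbours differ in regional pattern. RefSeq (GRCm38.p6) gives the following bases before the gene starts, 5′ to 3′ on the gene's own strand, covering chr4:119637482-119637703 (plus) and chr4:119658955-119659195 (minus). Capitals mark matches to 1 of 4 motifs.
Guca2a: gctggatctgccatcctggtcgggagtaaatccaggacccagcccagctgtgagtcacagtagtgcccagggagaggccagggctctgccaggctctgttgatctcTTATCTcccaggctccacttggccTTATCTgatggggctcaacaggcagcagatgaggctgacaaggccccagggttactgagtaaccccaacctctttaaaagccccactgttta
Guca2b: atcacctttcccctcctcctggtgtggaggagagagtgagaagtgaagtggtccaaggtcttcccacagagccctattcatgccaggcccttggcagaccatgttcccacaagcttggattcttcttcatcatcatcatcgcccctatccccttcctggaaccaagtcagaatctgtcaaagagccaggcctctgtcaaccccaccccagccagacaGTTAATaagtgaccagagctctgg
The motifs searched on both strands were a GATA motif (AGATAA, read as TTATCT on the other strand), an HNF1 half-site (GTTAAT), a CDX motif (TTTATG) and an HNF4 half-site (CAAAGT), with no overlaps among the matches shown. Guca2a held 2 GATA matches and Guca2b 1 HNF1 half-site match. Within the 250 bases upstream of 32851 mouse promoters, 9.99% held the GATA motif, 6.43% the HNF1 half-site, 10.8% the CDX motif and 12.6% the HNF4 half-site. Promoters were found for 7 of the 10 genes. Of the other five, Slc26a3 held 2 HNF1 half-site matches and Slc4a4 1 HNF4 half-site match in the window of 1 of its 2 starts, and Cftr, Slc26a6 and Slc9a3 held no match to these letters in these windows.

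Gucy2c, the receptor for both peptides, had no called change from week 2 to week 3 in either region. That change was log2 0.21 ± 0.16 SE, adjusted p = 0.414 in duodenum and log2 -0.26 ± 0.16 SE, adjusted p = 0.255 in ileum. Duodenal values were 467, 467 and 452 CPM at day 0, 289, 273 and 266 CPM at day 8 and 369, 498 and 498 CPM at week 4. In ileum the same ages gave 552, 442 and 438 CPM, 240.2, 312 and 261 CPM and 364, 364 and 206 CPM. In both regions the day 8 samples all lay below the day 0 samples. The change to day 8 was log2 -0.74 ± 0.16 SE, adjusted p = 0.000306 in duodenum and log2 -0.81 ± 0.16 SE, adjusted p = 0.000346 in ileum. At week 4 duodenum overlapped its day 0 range (log2 -0.02 ± 0.16 SE, adjusted p = 0.932), and ileum was below it (log2 -0.61 ± 0.16 SE, adjusted p = 0.00234). The mean difference between regions was log2 0.05 ± 0.06 SE, adjusted p = 0.451. At week 4 ileum was lower (log2 -0.55 ± 0.16 SE, adjusted p = 0.0124), a call lost without ileum sample 3, at 206 CPM (log2 -0.37, adjusted p = 0.0974).

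The 2 genes of the chloride secretory route rose together in duodenum during suckling. Cftr (chr6:18170687-18322768, plus strand) read 106, 127 and 124 CPM at day 0, 289.8 and 285 CPM in the 2 day 6 samples and 232, 232 and 237 CPM at day 8. Slc12a2 (chr18:57878678-57946821, plus strand) went from 194, 244 and 314 CPM to 1208 and 1103 CPM and 844, 868 and 908 CPM. For both genes, all day 6 and day 8 samples exceeded all day 0 samples. The rise from day 0 to day 8 was log2 0.97 ± 0.24 SE, adjusted p = 0.00121 for Cftr and log2 1.80 ± 0.27 SE, adjusted p = 1.22e-06 for Slc12a2. From day 8 to week 2 neither gene's change was called (log2 -0.37 ± 0.24 SE, adjusted p = 0.335 for Cftr and log2 -0.42 ± 0.26 SE, adjusted p = 0.310 for Slc12a2). Slc12a2 then came down to 394, 318 and 397 CPM at week 4, whose difference from day 0 missed the threshold (log2 0.56 ± 0.26 SE, adjusted p = 0.0868). Without duodenum day 0 sample 3 it passed (log2 0.81, adjusted p = 0.0336). Cftr stayed above its starting level, at 177, 224 and 219 CPM (log2 0.80 ± 0.24 SE, adjusted p = 0.00755 against day 0).

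Ileum had less of both transcripts. Ileal Cftr was 61.6, 123 and 74.9 CPM at day 0, 92.3 and 76.4 CPM at day 6 and 171, 166 and 106 CPM at week 4. Ileal Slc12a2 was 132, 227 and 168 CPM, 318 and 268 CPM and, at day 8, 436, 462 and 421 CPM. Slc12a2 rose from day 0 to day 8 in ileum as well, by log2 1.32 ± 0.27 SE, adjusted p = 0.000379, while ileal Cftr gave log2 0.46 ± 0.24 SE, adjusted p = 0.186 over the same span. The ileal difference from duodenum, averaged over ages, was log2 -0.80 ± 0.09 SE, adjusted p = 7.02e-10 for Cftr and log2 -0.89 ± 0.10 SE, adjusted p = 5.26e-10 for Slc12a2. It was widest at day 6, at log2 -1.77 ± 0.30 SE, adjusted p = 3.16e-05 and log2 -1.98 ± 0.33 SE, adjusted p = 2.61e-05, with no overlap between the 2 samples of each region. Both genes were called lower in ileum at days 4, 6 and 8 and week 2, and neither at days 0 and 2 or weeks 3 and 4.

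Day 4 duodenum was uneven for this pair. Its samples read 177, 299 and 94.4 CPM for Cftr and 534, 917 and 259 CPM for Slc12a2, and sample 3, the one with more smooth muscle transcript, was the lowest for both, and its part in these values was not tested. Without sample 2 of that group, the day 4 difference in Cftr was log2 -0.46, adjusted p = 0.152. The week 2 difference in Slc12a2 (log2 -0.84 ± 0.26 SE, adjusted p = 0.0198) was lost in 5 of the 6 fits that each left out 1 library, with log2 -0.67, adjusted p = 0.116 without duodenum sample 2. Ileal rises from day 0 to week 4 (log2 0.77 ± 0.24 SE, adjusted p = 0.00975 for Cftr and log2 0.82 ± 0.26 SE, adjusted p = 0.0118 for Slc12a2) also hung on single libraries. Cftr lost its call without ileum day 0 sample 1 (log2 0.57, adjusted p = 0.0907), day 0 sample 3 (log2 0.68, adjusted p = 0.0516) or week 4 sample 1 (log2 0.61, adjusted p = 0.0688). Slc12a2 lost it without day 0 sample 1 (log2 0.65, adjusted p = 0.0857) or week 4 sample 2 (log2 0.68, adjusted p = 0.0674). The annotation places the antisense gene Gm15592 (median 19.5 counts a sample) and the pseudogene Gm15595 (median 4 counts) inside the Cftr interval, and whether the counting used strand is not given.

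Of the 2 sodium/hydrogen exchangers, the regional mean differed for Slc9a3 and missed the threshold for Slc9a2. Slc9a3 (NHE3, chr13:74121457-74169442, plus strand), the main absorptive isoform of the brush border, ran higher in duodenum through suckling. At day 0 it read 198, 224 and 216 CPM in duodenum and 39.1, 117 and 78.4 CPM in ileum. At day 8 the values were 119, 103 and 112 CPM and 35.5, 37.7 and 40.2 CPM, and at week 2 329, 219 and 264 CPM and 73.7, 52.6 and 71.3 CPM. No ileal sample reached the lowest duodenal sample at these 3 ages. The difference, ileum minus duodenum, averaged over ages was log2 -1.27 ± 0.12 SE, adjusted p = 2.48e-11. The difference was called at days 0, 2, 4, 6 and 8 and week 2, up to log2 -2.04 ± 0.33 SE, adjusted p = 3.11e-05, and at week 3 it was log2 -0.37 ± 0.32 SE, adjusted p = 0.467. Single libraries ended the call at day 0 (without ileum sample 1, log2 -1.13, adjusted p = 0.0677) and day 4 (without duodenum sample 1, log2 -0.82, adjusted p = 0.0624), and 3 of the 4 fits that left out 1 library ended it at day 6 (up to adjusted p = 0.139).

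Slc9a3 fell, rose, fell and rose again in duodenum. Its change was log2 -0.93 ± 0.32 SE, adjusted p = 0.0188 from day 0 to day 8, log2 1.28 ± 0.33 SE, adjusted p = 0.00699 to week 2 and log2 -1.32 ± 0.33 SE, adjusted p = 0.00288 to week 3, when samples read 115, 113 and 97.7 CPM. At week 4 they spread over 145, 298 and 222 CPM, and the rise from week 3 (log2 1.03 ± 0.32 SE, adjusted p = 0.0293) was lost in 5 of 6 fits that left out 1 library, with log2 0.77, adjusted p = 0.191 without duodenum week 4 sample 2. The first fall was lost without day 8 sample 2 (log2 -0.88, adjusted p = 0.0622) and the rise to week 2 without week 2 sample 1 (log2 1.12, adjusted p = 0.0633), while the fall at week 3 held in all 6 such fits. Ileal Slc9a3 also fell by day 8 (log2 -1.04 ± 0.33 SE, adjusted p = 0.0201), but without day 0 sample 2, at 117 CPM, the change was log2 -0.64, adjusted p = 0.212. At week 3 ileal samples were 78, 86.4 and 86.5 CPM, and at week 4 234, 82.6 and 63.9 CPM. The high one is again sample 1: the week 4 difference from day 0 was log2 0.70 ± 0.32 SE, adjusted p = 0.0785 with it and log2 -0.13, adjusted p = 0.742 without it.

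Slc9a2 (NHE2, chr1:40680574-40769273, plus strand), a second apical isoform, was low at birth and climbed in both regions, most steeply after week 2. Duodenal samples read 3.91, 6.47 and 8.42 CPM at day 0, 19.3, 17.4 and 17.4 CPM at day 8 and 23.8, 23.4 and 24.2 CPM at week 2. They then reached 106, 115 and 78.2 CPM at week 3, and by week 4 181, 329.7 and 251 CPM. Ileal samples followed the same course, with 5.65, 7.18 and 5.96 CPM at day 0, 31.1, 32.7 and 32.4 CPM at week 2, then 145, 182 and 129 CPM and, at week 4, 238, 264 and 147 CPM. All week 3 and week 4 samples exceeded every sample from before week 3 in their region. The mean rose 40.5-fold from day 0 to week 4 in duodenum and 34.5-fold in ileum (log2 5.33 ± 0.26 SE, adjusted p = 9.06e-19, and log2 5.11 ± 0.26 SE, adjusted p = 1.76e-18). The step from week 2 to week 3 alone was log2 2.07 ± 0.22 SE, adjusted p = 2.7e-09 in duodenum and log2 2.25 ± 0.22 SE, adjusted p = 2.6e-10 in ileum. Day 0 to day 8 had already brought log2 1.52 ± 0.22 SE, adjusted p = 9.6e-07 in duodenum and log2 1.44 ± 0.23 SE, adjusted p = 1.23e-05 in ileum. The mean regional difference missed the threshold (log2 0.07 ± 0.08 SE, adjusted p = 0.432), and the week 3 difference (log2 0.61 ± 0.21 SE, adjusted p = 0.0493) was lost in all 6 fits that left out 1 library (adjusted p from 0.053 to 0.220).

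**Figure D2:**
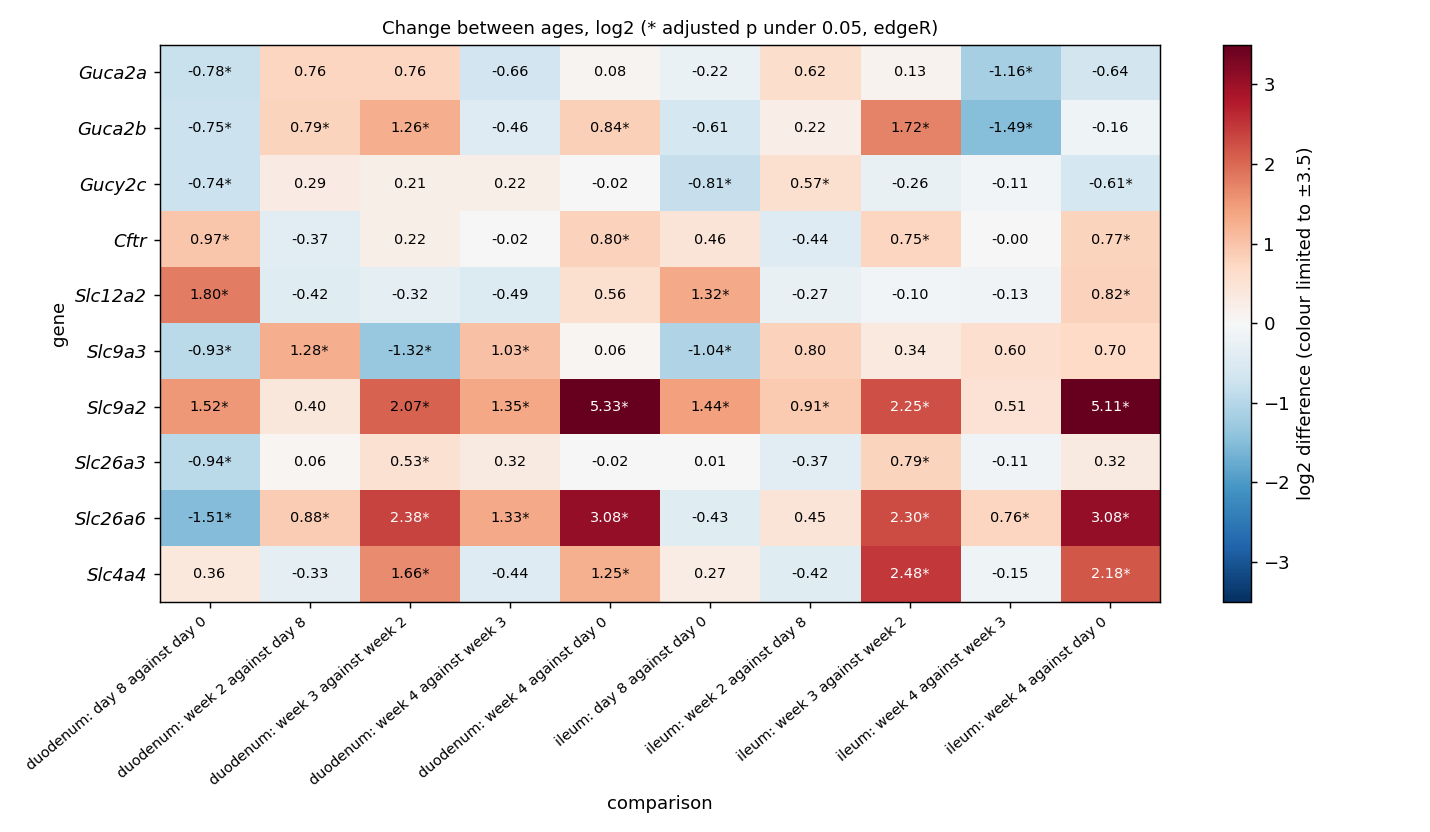
Log2 change of each gene (rows) over 5 spans in duodenum and ileum (columns), printed in each cell and coloured from blue (lower) to red (higher), with an asterisk where the adjusted p was under 0.05. The week 2 to week 3 columns are reddest for Slc9a2, Slc26a6, Slc4a4 and Guca2b in both regions, and paler with an asterisk for Slc26a3. The day 0 to day 8 columns are blue with an asterisk for Gucy2c and Slc9a3 in both.

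Of the apical anion exchangers, Slc26a6 (PAT1, chr9:108853283-108913049, plus strand), which exchanges chloride for bicarbonate or oxalate, followed a course like that of Slc9a2 after week 2. Duodenal samples read 43.5, 57.4 and 50.9 CPM at day 0, 8.44 and 10.7 CPM at day 6 and 44.6, 28.4 and 25.2 CPM at week 2. From there they climbed to 173, 207 and 129.6 CPM at week 3, and by week 4 339, 474 and 467 CPM, with no overlap between consecutive weeks. Ileal values were 41.4, 36.2 and 37 CPM at day 0, 29.9, 43.2 and 43.3 CPM at week 2, 158, 239.8 and 174 CPM at week 3, and by week 4 394, 353 and 223 CPM. The rise to week 3 was log2 2.38 ± 0.23 SE, adjusted p = 3.37e-10 in duodenum and log2 2.30 ± 0.23 SE, adjusted p = 3.84e-10 in ileum. By week 4 the mean was 8.43-fold and 8.46-fold its day 0 value (log2 3.08 ± 0.24 SE, adjusted p = 2.44e-13, and log2 3.08 ± 0.24 SE, adjusted p = 1.92e-13). The further rise from week 3 to week 4 was log2 1.33 ± 0.22 SE, adjusted p = 4.41e-05 in duodenum. In ileum it was log2 0.76 ± 0.22 SE, adjusted p = 0.0139, lost without ileum week 4 sample 1 (log2 0.57, adjusted p = 0.0966), week 4 sample 2 (log2 0.68, adjusted p = 0.0545) or week 3 sample 1 (log2 0.64, adjusted p = 0.102).

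Before weaning the same gene dipped in duodenum but not detectably in ileum. From day 0 to day 8 Slc26a6 changed by log2 -1.51 ± 0.23 SE, adjusted p = 1.25e-06 in duodenum, against log2 -0.43 ± 0.22 SE, adjusted p = 0.186 in ileum. At day 6 the ileal samples, 28 and 31.5 CPM, both exceeded the duodenal ones, and the difference was log2 1.64 ± 0.28 SE, adjusted p = 3.52e-05. Averaged over ages ileum was higher (log2 0.31 ± 0.08 SE, adjusted p = 0.00103), a call lost when the 2 omitted day 6 libraries were put back (log2 0.20, adjusted p = 0.121).

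Slc26a3 (DRA, chr12:31390871-31473917, plus strand), the chloride/bicarbonate exchanger whose loss causes congenital chloride diarrhoea in people, was abundant at birth and showed a dip in midsuckling. In duodenum it read 307, 318 and 240.0 CPM at day 0, 337, 326 and 309.9 CPM at day 2, 120.1 and 147 CPM at day 6 and 161, 146 and 163 CPM at week 2. It then stood at 244, 245 and 189.9 CPM at week 3, and by week 4 294, 298 and 259.5 CPM. All duodenal samples from day 6 to week 2 lay below all those of days 0, 2 and 4. The change from day 0 to day 8 was log2 -0.94 ± 0.16 SE, adjusted p = 7.18e-06 in duodenum, whereas ileum gave log2 0.01 ± 0.16 SE, adjusted p = 0.972. Ileal samples had their lowest values at week 2, 136, 146 and 157 CPM, and read 239, 265 and 251 CPM at week 3, a rise of log2 0.79 ± 0.16 SE, adjusted p = 0.000149. The matching duodenal rise (log2 0.53 ± 0.16 SE, adjusted p = 0.0132) was lost without week 2 sample 2 (log2 0.48, adjusted p = 0.0668), week 3 sample 1 (log2 0.47, adjusted p = 0.0637) or week 3 sample 2 (log2 0.46, adjusted p = 0.0723). Averaged over ages the regional difference was log2 -0.06 ± 0.06 SE, adjusted p = 0.405.

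Slc4a4 (NBCe1, chr5:88886818-89239653, plus strand) made its main move at week 3. Duodenal samples read 47.2, 66.5 and 62.4 CPM at week 2, and by week 3 234, 169 and 155 CPM. Ileal samples read 40.1, 48.4 and 44 CPM and 259.8, 259 and 221 CPM. All 6 week 3 samples exceeded every earlier sample of their region. The step was log2 1.66 ± 0.24 SE, adjusted p = 9.67e-07 in duodenum and log2 2.48 ± 0.24 SE, adjusted p = 2.12e-10 in ileum, and the test of the difference between these steps gave log2 0.82 ± 0.33 SE, adjusted p = 0.313. At week 4 duodenum held 89.4, 171 and 150.3 CPM and ileum 268, 252 and 146 CPM, which put both above day 0 (log2 1.25 ± 0.23 SE, adjusted p = 3.71e-05 and log2 2.18 ± 0.24 SE, adjusted p = 1.42e-09). Ileum was called lower at day 6 alone (log2 -1.09 ± 0.29 SE, adjusted p = 0.00326). The higher ileal level at week 4 (log2 0.70 ± 0.23 SE, adjusted p = 0.0237) was lost without ileum sample 1 (log2 0.53, adjusted p = 0.106), ileum sample 2 (log2 0.58, adjusted p = 0.0941) or duodenum sample 1 (log2 0.44, adjusted p = 0.193).

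Counted over the 10 genes, the earliest and the weaning spans held the most changes. From day 0 to day 8, 9 genes were called in duodenum (3 higher, 6 lower), where 41.2% of all genes were called, 22% higher and 19.2% lower. In ileum 4 were called (2 higher, 2 lower), against 19.3% of all genes, 8.56% higher and 10.7% lower. Over that span in duodenum the goblet cell sum went from 2696 to 2953 CPM to 1435 to 1512 CPM, the fibroblast sum from 51.0 to 84.1 CPM to 9.03 to 25.1 CPM and the smooth muscle sum from 17.5 to 21.6 CPM to 4.68 to 7.37 CPM. In ileum the fibroblast sum went from 83.5 to 119 CPM to 89.4 to 176 CPM and the leukocyte sum from 3.55 to 5.37 CPM to 15.4 to 21.9 CPM. The part of these markers in the counts was not tested. From week 2 to week 3, 6 were called in duodenum (5 higher and Slc9a3 lower), against 18.3% of all genes, 7.7% higher and 10.6% lower. In ileum 6 were called, all higher, against 26.8% of all genes and 12.9% called higher. From day 8 to week 2, 3 rose in duodenum, where 15.7% of all genes were called and 6.75% rose, and 2 in ileum, where 6.64% were called and 4.17% rose. Without duodenum week 2 sample 1 none of the 3 was called, and without ileum day 8 sample 1 neither of the 2 was. From week 3 to week 4, 3 rose in duodenum, where 12.7% of all genes were called and 7.75% rose. In ileum Slc26a6 rose and both peptide genes fell, where 16.1% of all genes were called, 8.26% higher and 7.81% lower. Between the same ileal groups the mitochondrial share of counts went from 14.6 to 16.9% to 22.1 to 35.2%, and the leukocyte sum from 5.80 to 14.9 CPM to 109 to 326 CPM, and their part in these calls was not tested. The whole span from day 0 to week 4 gave 5 calls in duodenum, all higher, and 6 in ileum, 5 higher and Gucy2c lower. Of all genes 40.5% were called in duodenum, with 20.4% higher, and 41.9% in ileum, with 21.5% higher and 20.4% lower. The median change of the 10 genes was 0.65 in duodenum and 0.77 in ileum from week 2 to week 3 (log2), beside 0.03 in each region for all genes tested. From day 0 to day 8 it was -0.75 in duodenum and -0.11 in ileum, beside -0.06 and 0.01 for all genes.

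Regional differences among the 10 were most frequent at day 6. The first days gave 3 calls on day 0, where 6.1% of all genes were called, and 2 on day 2, where 8.01% were. Day 4 gave 5 calls beside 26.6% of all genes, day 6 gave 7 beside 35.3%, and day 8 gave 5 beside 39.6%. Later, week 2 gave 4 calls beside 22.4% of all genes, week 3 gave 2 beside 14.2%, and week 4 gave 4 beside 28.4%. The day 6 count rests on 2 samples a group, and it was 0 when the omitted pair was put back under its labels. At day 0, leaving out ileum sample 1 left 1 call, Guca2a, because Slc9a3 and Slc26a3 (log2 -0.62 ± 0.16 SE, adjusted p = 0.0116; log2 -0.52, adjusted p = 0.11 without it) were lost. At day 4, leaving out duodenum sample 1 left 3 calls. The course over all ages differed between regions for 8 genes, all but Slc9a2 (adjusted p = 0.16) and Slc9a3 (0.0977), where 22.4% of all genes were called for this interaction. Of these, Cftr, Slc12a2 and Gucy2c lost the call in a fit with a replicate block. For the step from week 2 to week 3 alone no member differed between regions, with 1.38% of genes called, and 3 members (Slc9a3, Slc4a4 and Gucy2c) had an unadjusted p under 0.05, led by Slc9a3 (log2 1.67 ± 0.46 SE, adjusted p = 0.057). DESeq2 called 1 member for this difference, as did edgeR with RLE size factors.

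**Figure D3:**
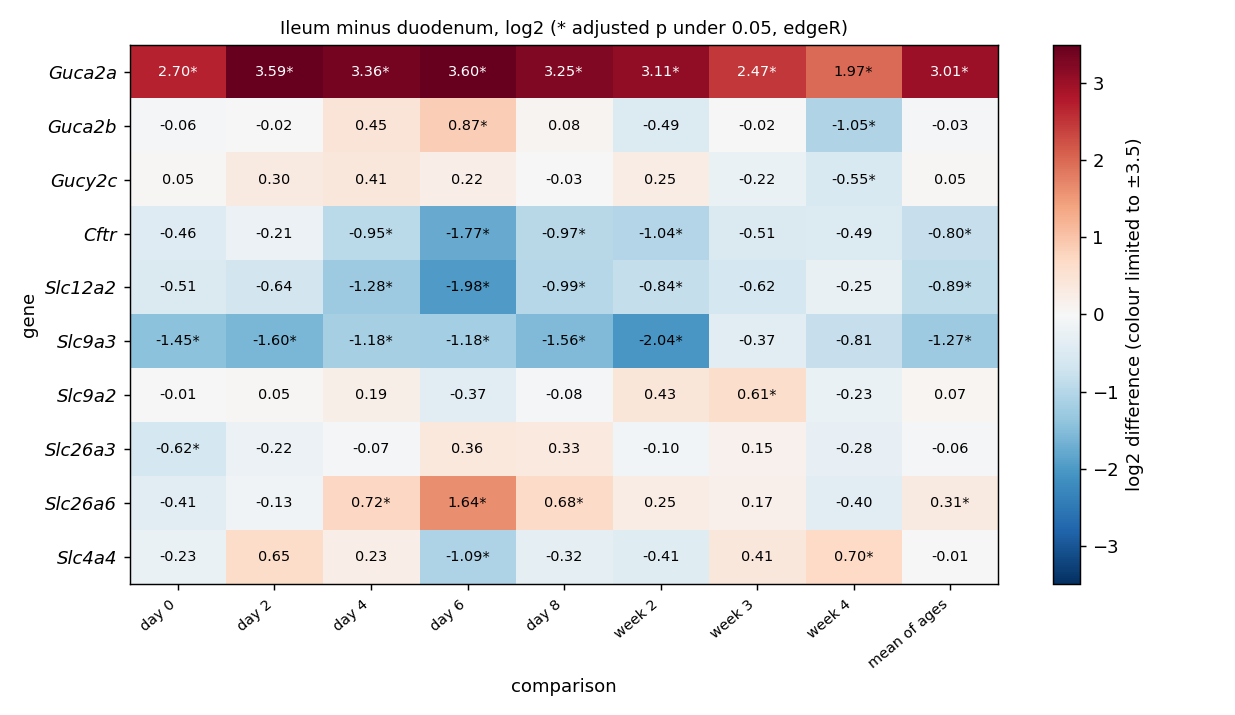
Log2 difference, ileum minus duodenum, of each gene (rows) at each age and averaged over ages (columns), printed in each cell, with blue for lower in ileum, red for higher and an asterisk where the adjusted p was under 0.05. The Guca2a row is red throughout, from 1.97 to 3.60, and the Cftr and Slc12a2 rows are darkest at day 6.

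Relative to the merged length of all annotated exons of a gene, Guca2a and Guca2b stood highest at birth in ileum and Guca2b in duodenum, with Slc9a2 lowest in both. Levels per kilobase of merged exon at day 0 in ileum were 448 CPM for Guca2a, 215 for Guca2b, 120.4 for Gucy2c and 0.897 for Slc9a2. In duodenum at that age the order began with Guca2b at 224 CPM per kilobase, then Gucy2c at 117 and Guca2a at 69.1. By week 4 in duodenum the order was Guca2b (399), Gucy2c (115), Slc26a6 (78.9) and Guca2a (73.2), with the last pair close. Slc26a6 had been at 9.36 CPM per kilobase at day 0. Slc4a4 (12.7) was then lowest, and Slc9a2 had moved up to 36.3. Of the 2 sodium/hydrogen exchangers, Slc9a3 was 38.7 CPM per kilobase against 0.897 for Slc9a2 in newborn duodenum. In newborn ileum it was 14.2 against 0.897. At week 4 the duodenal means were 40.3 (SD 13.9) for Slc9a3 and 36.3 (SD 10.7) for Slc9a2. In ileum they were 23.1 (SD 17.0) and 31.0 (SD 8.80), and the Slc9a3 mean there includes sample 1, at 234 CPM. Both differences lay within these spreads, and the order was not tested.

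The summed level of 8 epithelial marker genes was higher at week 4 than at day 0, so the changes were set beside it. Whether these genes track the amount of epithelium was not tested. All 8 epithelial markers were found (Epcam, Cdh1, Vil1 and others), and their sum went from 3803 to 4107 CPM at day 0 to 7707 to 10440 CPM at week 4 in duodenum, and from 3649 to 4538 CPM to 6756 to 10318 CPM in ileum. The mean sum rose 2.26-fold in each region. Per CPM of epithelial marker, the day 0 to week 4 ratio was 17.8 in duodenum and 14.9 in ileum for Slc9a2, and 3.73 and 3.69 for Slc26a6. It was 1.04 and 1.97 for Slc4a4, so that duodenal Slc4a4 kept pace with these markers. Cftr lagged behind them at 0.772 and 0.727, as did all the remaining members. Their ratios were 0.436 and 0.285 for Gucy2c, 0.465 and 0.315 for Guca2a and 0.794 and 0.390 for Guca2b. Slc26a3 gave 0.440 and 0.544, Slc9a3 0.452 and 0.656, and Slc12a2 0.673 and 0.778, the last for a called ileal rise. From week 2 to week 3 the sum rose 1.33-fold in duodenum and 2.04-fold in ileum, and per epithelial CPM Guca2b was 1.80 and 1.61 times its week 2 level. The called ileal rises of Slc26a3 and Cftr over that span were 0.853 and 0.827 on this scale, and the called duodenal rise of Guca2b from day 0 to week 4 was 0.794. From day 0 to day 8, when the sum was 1.28-fold and 0.936-fold its day 0 mean, Slc12a2 per epithelial CPM was 2.74 and 2.61 times its day 0 level. All 5 goblet cell markers were found and moved too, from sums of 2696 to 2953 CPM at day 0 to 4688 to 9939 CPM at week 4 in duodenum and from 3537 to 4029 CPM to 13784 to 18537 CPM in ileum. The 4 leukocyte markers went from 5.66 to 15 CPM to 60 to 62.2 CPM in duodenum and from 3.55 to 5.37 CPM to 109 to 326 CPM in ileum, and their part in these results was not tested. Between regions, the 4 fibroblast markers summed to 3.37 to 84.1 CPM in duodenum and 36.2 to 278 CPM in ileum, and their part in the regional differences was not tested. All 10 pancreatic acinar markers were found in the series and summed to 1.27 to 595 CPM in duodenum, with 595 CPM in day 2 sample 1, and to 1.00 to 24.8 CPM in ileum, where Pnlip and Cela2a had medians of 0 over all samples.

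Around these 10 genes, 42 others of the same machinery were read from 7 lists. From day 0 to week 4, 33 of the 42 were called in duodenum (22 higher, 11 lower) and 30 in ileum (20 higher, 10 lower), beside 40.5% and 41.9% of all genes. In duodenum 20.4% of all genes were called higher, and 50.3% of the calls were in that direction. In ileum 21.5% of all genes were called higher and 20.4% lower. The counts per list that follow are read against these shares, and small ones such as 1 of 5 lie near them. The basolateral pump and channels, which power and balance apical transport, gave 6 of 6 higher in duodenum and 5 of 6 in ileum. Kcnn4, a calcium-activated potassium channel, rose from 0.887 to 3.32 CPM to 28.5 to 38 CPM in duodenum (log2 4.08 ± 0.43 SE, adjusted p = 7.06e-10) and from 0.143 to 0.960 CPM to 11.3 to 30.1 CPM in ileum (log2 5.59 ± 0.50 SE, adjusted p = 1.84e-11). Clcn2, a chloride channel, rose by 3.10 and 2.87 (log2), and Atp1b1, a sodium pump subunit, by 1.81 and 1.68 (log2; adjusted p from 3.75e-14 to 1.71e-08).

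Other acid-base and anion transport genes split, with 3 of 7 higher and 2 lower in each region. Car4, the carbonic anhydrase anchored at the brush border, was at 0.145 to 0.241 CPM at week 2, 1.29 to 3.73 CPM at week 3 and 57.8 to 72.6 CPM at week 4 in duodenum. In ileum the same weeks gave 0.327 to 0.636 CPM, 2.04 to 4.01 CPM and 49.2 to 184 CPM. Against day 0 its rise at week 4 was log2 8.95 ± 0.61 SE, adjusted p = 1.77e-14 in duodenum and log2 8.66 ± 0.58 SE, adjusted p = 8.21e-15 in ileum, from 0.0455 to 0.222 CPM and 0.0739 to 0.404 CPM at day 0. The cytosolic enzyme Car2 rose by log2 3.69 and 3.24 (adjusted p = 4.29e-08 and 6.53e-07). Among the brush border scaffolds, 2 of 5 were higher and 1 lower in each region: Slc9a3r1 rose (log2 1.29 in duodenum, 1.14 in ileum) and Slc9a3r2, which ties Slc9a3 to its regulators, fell (log2 -3.09 ± 0.33 SE, adjusted p = 7.96e-10 and log2 -2.87 ± 0.33 SE, adjusted p = 4.57e-09).

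Of 8 genes of cyclic nucleotide signalling and secretagogue receptors, 4 were higher and 2 lower in duodenum, and 3 and 2 in ileum. Prkg2, the kinase activated by cyclic GMP downstream of Gucy2c, fell in ileum (log2 -1.91 ± 0.28 SE, adjusted p = 4.78e-07) and in duodenum (log2 -0.66 ± 0.27 SE, adjusted p = 0.049), and the difference between the regions in this change was not tested. Ptger4, a prostaglandin receptor, rose by log2 0.88 and 1.79, and Pde5a, which breaks down cyclic GMP, by log2 0.68 and 1.63. Of 5 genes for regulating kinases and a ligase, 1 was higher and 2 lower in duodenum, and 1 and 1 in ileum. Among them Sgk1, a kinase induced by steroid hormones, fell from 340.3 to 466 CPM to 43.9 to 105 CPM in duodenum and from 344 to 702 CPM to 102 to 117 CPM in ileum (log2 -2.52 ± 0.29 SE, adjusted p = 3.87e-09 and log2 -2.10 ± 0.28 SE, adjusted p = 1.12e-07). In the sodium channel and mineralocorticoid list, 2 of 5 were higher and 2 lower in each region. The receptor gene Nr3c2 rose by log2 2.61 and 2.38 and Hsd11b2, which shields it from glucocorticoids, by log2 3.45 and 3.38. Scnn1g, a sodium channel subunit, was at 0.455 to 0.582 CPM in newborn duodenum and at 0 in all duodenal samples of weeks 3 and 4, which allows up to 3 counts a library.

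Water channels moved in both directions with age and in 1 direction between regions. From day 0 to week 4, 4 of 6 were higher and 2 lower in each region. Aqp3, a basolateral channel, rose by log2 2.90 ± 0.45 SE, adjusted p = 2.16e-06 in duodenum and log2 2.81 ± 0.47 SE, adjusted p = 5.95e-06 in ileum. Aqp8 stood at 3.49 to 13.7 CPM at day 0, 32 to 82.4 CPM at week 2 and 1.56 to 2.86 CPM at week 4 in duodenum, and at 2.10 to 3.61 CPM and 0 to 0.0668 CPM in ileum at weeks 2 and 4. Averaged over ages, 31 of the 42 differed between regions, 14 higher and 17 lower in ileum, beside 62.1% of all genes, 31.9% higher and 30.2% lower. All 6 water channels were lower in ileum, from log2 -0.52 for Aqp11 to -3.73 for Aqp8, as were 5 of the 6 basolateral genes, among them Kcne3, a potassium channel subunit gene (log2 -0.92). All 5 scaffolds were higher in ileum, from log2 0.32 for Slc9a3r2 to 0.58 for Pdzd3. These counts are read against the same 30.2% of all genes lower and 31.9% higher.

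**Figure D4:**
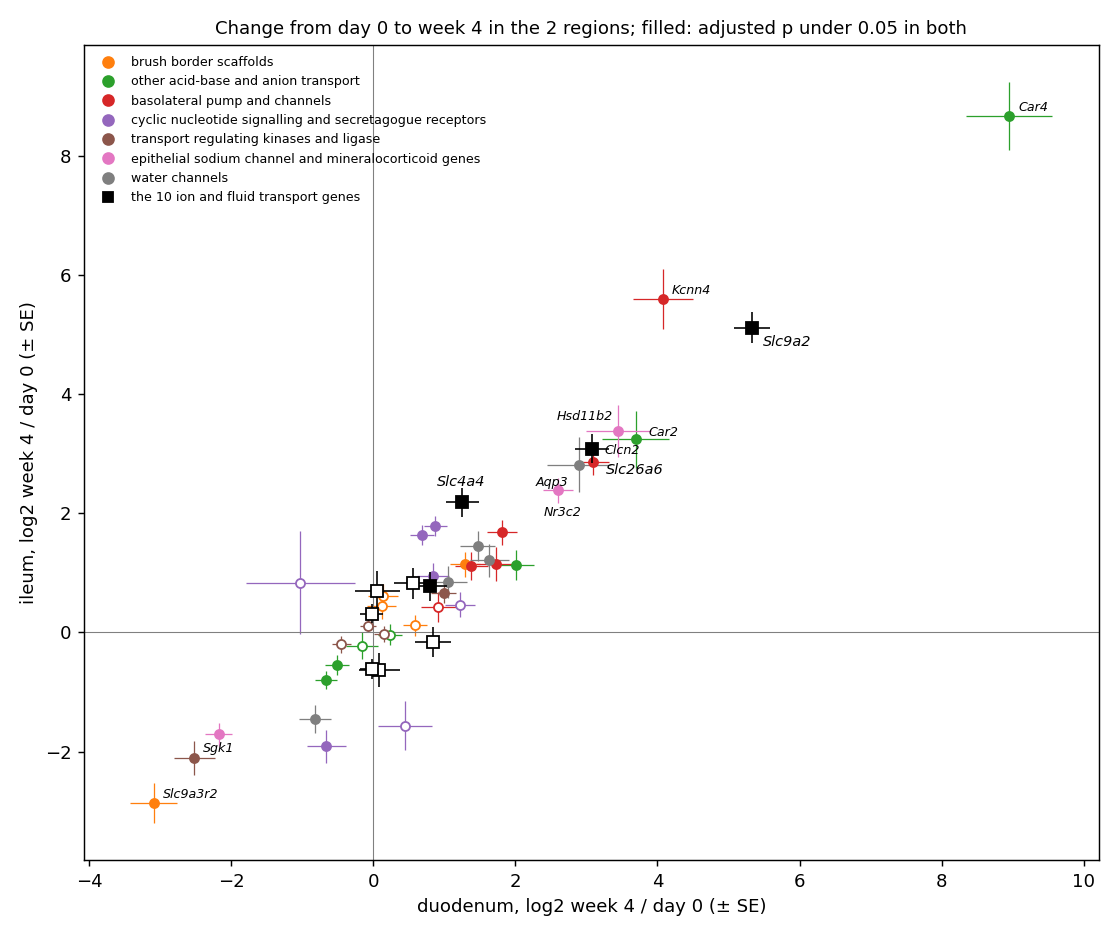
Log2 change from day 0 to week 4 with its standard error, duodenum on the horizontal and ileum on the vertical axis, for the 10 genes (black squares) and the genes of the 7 lists with a mean of at least 0.1 CPM in all 4 groups (circles, coloured by list). Filled symbols have an adjusted p under 0.05 in both regions; Slc9a2 and Slc26a6 lie far up the diagonal with Car4 and Kcnn4, and Guca2a, Gucy2c and Slc26a3 lie near the origin.

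Across the 16 group means, members were compared with 12355 genes of mean log2 CPM of at least 1 by Pearson's r on log2 CPM, as a description over points that share libraries. Within the set, Cftr and Slc12a2 had r = 0.83, Slc9a2 and Slc4a4 0.84, and Slc9a2 and Slc26a6 0.82, while Slc9a3 and Guca2a had -0.75 and Cftr and Guca2a -0.72. The 2 peptide genes gave only 0.20 with each other. Closest were Cyp4f14, L1cam and Ttc39b to Slc9a2 (r of 0.98 for the first) and Fam3b, Fam20a and Dgat1 to Slc26a6 (0.98 to 0.99). Slc4a4 had r = 0.94 with Gdpd1 and 0.93 with Me2, which were among its nearest genes. Slc12a2 was nearest Pgm2l1, Cibar1 and Nup153 (0.96 to 0.97), and Cftr nearest Bmpr1a and Slc25a17 (0.96). Guca2a was nearest Naaladl1, Vopp1 and Gsdme (0.92 to 0.93), Guca2b nearest Abhd2, Vwa1 and Ugt2a3 (0.91 to 0.92), and Gucy2c nearest Tcta, Zfand3 and Wfs1 (0.90 to 0.92). Slc9a3 was nearest Scp2, Cept1 and Rab6a (0.91 to 0.92), and Slc26a3, with the weakest match, nearest Palld (0.85).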

How the data were processed

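RNA was sequenced from 48 samples, and 46 entered the fit. The authors' deposited table holds estimated counts per gene, summarised from transcript estimates. A pair of further tables holds a deposited normalized signal, equal to those counts divided by 1 constant per column in 40 columns. These columns include no day 4 sample and neither omitted day 6 library, so the limma alternatives on this signal ran without day 4. STAR 2.6.1d, Salmon 0.14.2, DESeq2 1.30.1 and the build mm10 (GRCm38) are named in the submitters' processing notes. Whether counting used strand is not given in the sources used here. Counts were rounded to whole numbers and filtered to 21986 genes with edgeR 4.0.16 (filterByExpr on the 16 groups, TMM scaling, robust quasi-likelihood fit, R 4.3.3). Benjamini-Hochberg adjustment ran over all these genes, with a call at 0.05. Scripts were tested on simulated data. Positions come from GENCODE release 21. Members, lists and the rule for named genes (all 10 members, and up to 3 genes per list called in both regions with the largest mean change from day 0 to week 4, and the 3 nearest genes by correlation) were chosen with earlier results of these data known. Some of these nearest genes are not reported here. Alternatives were RLE factors, 2 other count filters, DESeq2 1.42.0, limma 3.58.1 on the signal plus 1 or 0.1, other sample sets, a replicate block and leaving out each sample.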

Additional observations from a re-analysis of the deposited data

Results flagged for a closer look

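The change with age differed between duodenum and ileum, in the test of the region by age interaction (edgeR, 7 contrasts together), for 8 of the 10 genes, where 22.4% of all genes were called. Adjusted p was 0.000441 for Slc26a6, 0.00236 for Slc4a4, 0.0108 for Guca2b, 0.0154 for Slc26a3, 0.0231 for Guca2a, 0.0254 for Gucy2c, 0.0381 for Cftr and 0.0398 for Slc12a2. Slc26a6 (chloride/bicarbonate exchange), Slc4a4 (bicarbonate uptake) and Guca2b (uroguanylin) were called in every alternative except the one with all 48 samples, where their adjusted p was 0.236, 0.17 and 0.217. The regional difference at day 6 was log2 1.64 for Slc26a6 and log2 -1.09 for Slc4a4. For Cftr and Slc12a2 the call was lost without either ileal day 6 sample, with adjusted p up to 0.148 for Cftr and 0.155 for Slc12a2. In a fit with a replicate block Cftr, Slc12a2 and Gucy2c lost it.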

How the results depend on the processing

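Over 1423 alternatives of 128 results for single genes, 1295 kept direction and side of the threshold, 97 lost the call, 14 gained one and 17 turned sign. No called value turned sign. Of 464 alternative counts of called members, 425 stayed within 1.5 times. Samples with the same number were not treated as pairs in the main fit, because the labels do not pair them. Of 23 pairs of duodenal and ileal samples with the same age and number, 16 had deviations correlated above 0.1. The 2 day 6 pairs necessarily share 1 value (r = 0.187), because groups of 2 samples give mirrored deviations. In all, 17 duodenal samples correlated best with their own number, a hint of pairing that does not settle it. With a replicate block the interaction gave 5 called members in place of 8, losing Cftr, Slc12a2 and Gucy2c. The other counts stayed within 1.5 times under the block. With all 48 samples the counts were 1 for week 2 against day 8 in duodenum and 1 in ileum, 1 for week 4 against week 3 in ileum, 3, 0 and 1 for the regions at day 4, day 6 and week 3, and 0 for the interaction. Fitting only the groups compared gave 6 for week 2 against day 8 in duodenum, 7 for it in ileum, and 1, 5, 1, 7 and 1 for the regions at day 0, day 2, day 4, week 2 and week 4, and 1 for the regional difference of the week 3 step. Without a count filter the counts were 1 for week 2 against day 8 in ileum, 1 for the regions at week 3 and 3 for the interaction. The 40 samples without day 4 gave 5 for week 4 against week 3 in duodenum, and 4 and 4 for the regions at day 2 and week 3. RLE factors and DESeq2 gave 1 and 1 for the regional difference of the week 3 step, as did 44 samples without duodenum day 4 sample 3 and ileum week 4 sample 1 (a set chosen after seeing the data), with 1.

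Leaving out 1 sample gave 0 to 3 calls for week 2 against day 8 in duodenum and 0 to 2 in ileum, 1 to 3 for the regions at day 0, 3 to 6 at day 4 and 1 to 1 at week 3. Signs turned only among uncalled values. The regional mean of Slc4a4 (log2) was 0.027 with RLE factors, 0.018 with a mean count of at least 10, 0.027 in DESeq2, 0.091 with all 48 samples and 0.0059 with the block. That of Guca2b was 0.0050 with RLE factors and 0.0050 in DESeq2, and that of Gucy2c -0.0079 in the 40 samples. For Slc9a3, ileal week 4 against day 0 was -0.13 in the 44 samples. Leaving out 1 sample, that value ran from -0.13 to 1.11, and the one for Guca2b from -0.74 to 0.063. In duodenum the same span ran from -0.17 to 0.33 for Slc9a3, -0.092 to 0.077 for Slc26a3, -0.15 to 0.43 for Guca2a and -0.055 to 0.15 for Gucy2c. The regional mean ran from -0.043 to 0.047 for Slc4a4 and -0.10 to 0.019 for Guca2b. The cause of these shifts was not tested.

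Over all genes, the fit gave 4930 interaction calls, against 947 with all 48 samples and 9512 without day 4. With all 48 samples the calls between regions went from 7762 to 0 on day 6, 1342 to 578 on day 0, 1762 to 1024 on day 2, 5855 to 3851 on day 4, 4922 to 2561 in week 2 and 3117 to 1376 in week 3. Those of week 2 against day 8 went from 3448 to 1528 in duodenum and 1460 to 417 in ileum. Without day 4 there were 2419, 2903 and 5585 calls between regions on day 0, day 2 and in week 3, 3037 for the ileal step to week 2 and 4568 for the duodenal step to week 4 (2794 in the fit of 46). Fitting only the groups compared gave 5408, 354, 7426 and 2491 between regions on day 2, day 4 and in weeks 2 and 4 (6234 in the fit of 46 for week 4), and 6278, 3472 and 1527 for the step to week 2 in duodenum and ileum and the ileal step to week 4 (3534). Without a count filter, 886 were called for the ileal step to week 2 and 894 on day 0. The regional difference of the week 3 step, 303 calls, ran from 113 (all 48 samples) to 672 (without day 4).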

Other observations

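The 2 libraries left out were compared with their groups on a scale set over all 48 samples. The one labelled duodenum day 6 sample 3 read 212 CPM for Guca2a, 323 CPM for Slc12a2 and 99.7 CPM for Cftr. The one labelled ileum day 6 sample 3 read 15.8 CPM for Guca2a, 1186 CPM for Slc12a2 and 306 CPM for Cftr. Each of these values is nearer to the other region's remaining day 6 samples than to those of its own label. Gucy2c did not follow this in the library labelled duodenum, which read 299.8 CPM, between the 254.4 and 309.6 CPM of its label. All these genes are among those studied, so the values are no independent check of the labels. Sample 1 of ileum week 4, with its low sum of Fabp6, Slc10a2 and Fgf15, read 234 CPM for Slc9a3 against 82.6 and 63.9 CPM in the other two of its group, and 271 CPM for Guca2b against 112 and 119.9 CPM.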
